A study of Rattus norvegicus with 12 samples.

Results

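The genes described here are 7 genes known to respond to the coactivator YAP, or to act beside such genes at the cell surface. They are Ccn1 (formerly Cyr61), Ccn2 (formerly Ctgf), Ankrd1, the caveolins Cav1 and Cav2, the tissue factor gene F3 and the receptor gene Axl. All probes carrying one of these symbols in the platform annotation were taken, which gave 9 probes among the 22523 of the array, for 7 of its 13337 named genes. Cav1 and Axl each had a pair of probes, and these are called probe 1 and probe 2. The genes had been chosen by their levels after rapamycin and vehicle on these arrays, so every rapamycin response of a member is given as a description without a test. The differences of the members between the lines rest on the same arrays, and they too are given with their SE and without a p-value.

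RNA was measured in 2 rat hepatic cell lines, GN5 and H5D, on Illumina RatRef-12 BeadChips, in 4 groups of 3 arrays. GN5 cells are a chemically transformed derivative of the rat liver epithelial line WB-F344 and were grown in DMEM/F12. H5D cells came from a hepatocellular carcinoma that an azo dye had induced in a Fischer rat, and were grown in Waymouth medium. Both lines are tumorigenic and were labelled as intermediate in their response to rapamycin, an inhibitor of the kinase mTOR. Cells received the vehicle DMSO or 50 nM rapamycin for 24 hr, and both lines were cultured with 10% fetal bovine serum. Each array held RNA of 1 plate, so the errors measure the spread between plates. Because each line had its own medium, differences between the lines cannot be told apart from differences between the media. In RNA from whole cultures, fewer cells with a transcript and less transcript per cell cannot be told apart either.

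YAP and its paralog TAZ (gene Wwtr1) are coactivators that the Hippo kinases LATS1 and LATS2 keep out of the nucleus. In the nucleus they bind the TEAD factors, which recognise the motif GGAATG, and they respond to cell density, matrix stiffness and actin tension. CCN1 and CCN2 are secreted matrix proteins that bind integrins, and their genes are widely used as readouts of YAP. Caveolins are membrane proteins that, with the cavins, form the small invaginations called caveolae. Tissue factor starts the extrinsic clotting cascade, and AXL is a receptor tyrosine kinase for GAS6.

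The promoters of Ccn2, Ccn1 and Cav2 are shown because they were the only member promoters with a match to a motif searched. Each is the 250 bases before the RefSeq start site in the GRCr8 assembly, written along the gene's strand, with matches in capitals. Ccn2 lies on the minus strand at chr1:22624615-22624864, Ccn1 on the minus strand at chr2:237225690-237225939 and Cav2 on the plus strand at chr4:46582431-46582680.
Ccn2 promoter: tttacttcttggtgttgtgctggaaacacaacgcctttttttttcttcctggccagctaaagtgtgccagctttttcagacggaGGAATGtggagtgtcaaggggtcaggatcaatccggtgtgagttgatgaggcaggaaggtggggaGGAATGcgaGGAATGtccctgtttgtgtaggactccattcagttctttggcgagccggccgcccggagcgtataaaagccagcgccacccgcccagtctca
Ccn1 promoter: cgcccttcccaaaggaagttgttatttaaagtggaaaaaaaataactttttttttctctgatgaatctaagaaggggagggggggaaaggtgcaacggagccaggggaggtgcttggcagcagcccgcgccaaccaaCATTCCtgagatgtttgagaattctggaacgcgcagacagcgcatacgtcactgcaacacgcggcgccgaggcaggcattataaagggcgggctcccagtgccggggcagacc
Cav2 promoter: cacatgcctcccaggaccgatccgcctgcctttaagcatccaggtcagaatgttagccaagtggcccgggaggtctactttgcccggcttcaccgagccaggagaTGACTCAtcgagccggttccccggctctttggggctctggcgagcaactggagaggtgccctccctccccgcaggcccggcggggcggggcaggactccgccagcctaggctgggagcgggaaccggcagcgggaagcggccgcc

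The Ccn2 promoter held 3 copies of GGAATG on the gene's own strand, at 166 to 161, 101 to 96 and 92 to 87 bases before the start. Ccn1 held 1 copy on the opposite strand, 113 to 108 bases before the start. Cav2 held 1 match to TGANTCA, the motif of the AP-1 factors, 145 to 139 bases before the start. Of all 33469 rat promoters of the same length in the table, 12.1% held GGAATG at least once on either strand, 0.0807% held it 3 or more times, and 6.34% held TGANTCA. The CArG box, the motif of the serum response factor, was in 1.5% of all promoters and in no member promoter searched. The table held promoters for 5 of the 7 genes, and Ankrd1 and F3 were not searched. Cav1 had 2 start sites in the table, and neither of its windows nor that of Axl held a match. Such matches describe the letters of these windows and not where a factor was bound.

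**Figure D1:**
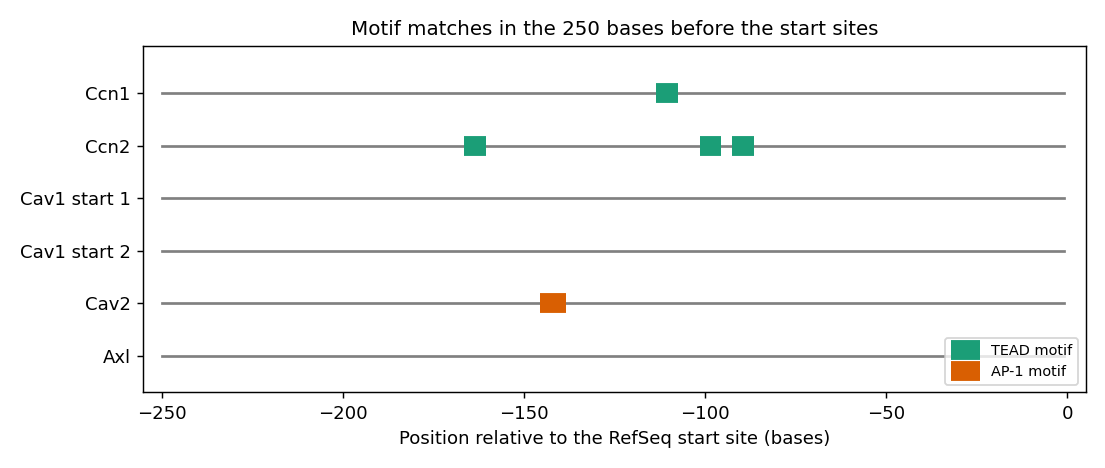
Positions of motif matches in the 250 bases before the RefSeq start sites of the member genes that the promoter table held. The x axis gives the position relative to the start site in bases, each grey line is 1 promoter, and coloured blocks mark matches on either strand. Ccn2 has 3 TEAD matches, Ccn1 has 1, and Cav2 has 1 AP-1 match.

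Across the arrays, 7427 to 8483 probes (33% to 37.7%) were detected, meaning that their detection p was at most 0.01. The median raw signal lay between 74.3 and 82.7 on 10 arrays and was higher on GN5 vehicle replicates 2 (106) and 3 (96.2). Pairs of arrays from the same group correlated at 0.9924 to 0.9965 over all 22523 probes, detected or not, and pairs from the different lines at 0.9163 to 0.9231. Of 6 hepatocyte marker genes on the array, only transferrin (Tf) was detected in any group on all of its arrays, and albumin (Alb) was not. The epithelial keratins Krt7 and Krt8 and the mesenchymal filament gene Vim were detected in both lines. Krt19 was detected in H5D only, and the collagens Col1a1 and Col1a2 in GN5 only. The epithelial markers Epcam and Cdh1 and the mesenchymal marker Thy1 were detected on no array, and the mesenchymal marker Des on 1 GN5 vehicle array. None of 3 endothelial markers and 1 of 3 leukocyte markers (Cd14) were detected. The summed raw signal of the 5 mesenchymal markers was 21449 to 29616 in the GN5 vehicle group and 6582 to 8742 in the H5D vehicle group. The sums of the hepatocyte markers (675 to 852 in GN5 and 2562 to 3631 in H5D) and of the leukocyte markers (422 to 547 and 1472 to 2301) ran the other way under vehicle. The sum of the epithelial markers was 8702 to 11518 in GN5 and 6281 to 7775 in H5D under vehicle. With rapamycin it was 6493 to 7018 in GN5 and 9148 to 10733 in H5D. Tf, Cd14, Krt7 and Krt19 were called higher in H5D under vehicle and Col1a1, Col1a2 and Krt8 higher in GN5, while Vim differed by 0.17 on the log2 scale and was not called (adjusted p = 0.329, limma). Krt19 passed the detection filter through the H5D arrays alone, and Col1a1 and Col1a2 through the GN5 arrays alone. The direction of those calls was thus set by the filter. Of all probes tested under vehicle, 63.3% were called between the lines. Several markers thus differed between the lines beside the members, as most probes tested did, and their part in the members' differences was not tested.

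Levels below are log2 values after background correction and quantile normalization, and raw signals are the scanner's values before either step. Within a probe, levels can be compared between groups. Between probes they cannot, since probes differ in how brightly they bind.

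Both CCN genes were far higher in the GN5 cells than in the H5D cells. For Ccn1, the raw signals were 1116, 1542 and 1236 in GN5 vehicle replicates 1 to 3 and 1596, 1910 and 2233 with rapamycin. The H5D arrays read 155, 122 and 113 with vehicle and 164, 153 and 125 with rapamycin. All GN5 arrays lay above all H5D arrays, and the H5D treatment groups overlapped. The mean log2 level was 10.06 ± 0.0746 (SD, n = 3) in GN5 with vehicle against 6.29 ± 0.295 in H5D with vehicle. This was a 13.6-fold difference (log2 3.77, SE 0.147). With rapamycin the levels were 11.02 ± 0.166 and 6.45 ± 0.215, a 23.8-fold difference (log2 4.57, SE 0.126). On the authors' normalized values, which kept the background, the differences were 8.28-fold (log2 3.05) with vehicle and 14.6-fold (3.87) with rapamycin.

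The Ccn2 probe was close to the brightest on the GN5 arrays. Its raw signals were 13818, 15760 and 16589 in GN5 with vehicle and 14571, 13425 and 14156 with rapamycin. In H5D they were 786, 607 and 535 with vehicle and 1992, 2289 and 1673 with rapamycin. The GN5 groups overlapped, whereas every H5D rapamycin array lay above every H5D vehicle array. The mean log2 level was 13.75 ± 0.0154 in GN5 with vehicle and 9.31 ± 0.234 in H5D with vehicle, a measured difference of 21.7-fold (log2 4.44, SE 0.129). With rapamycin the levels were 13.75 ± 0.0887 and 10.87 ± 0.0728, a measured difference of 7.35-fold (log2 2.88, SE 0.0951). Both folds set H5D against GN5 signals near the top of the range.

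On the GN5 arrays the Ccn2 signal ranked between 34 and 64 among 22523 probes and reached 73.7% to 83.2% of the brightest signal of its array, where the brightest probes read 16321 to 21376 over all arrays. The median size of the measured responses was smaller there than at lower ranks. Among the 100 brightest probes of the GN5 arrays, the median size of the rapamycin response was 0.062 on the log2 scale, the largest rise was 0.23 and the largest fall -0.43, and 0 probes were called as rises and 2 as falls. For the 900 probes at ranks 101 to 1000 the median size was 0.117, the largest rise was 1.05 and the largest fall -1.67, and 24 probes were called as rises and 25 as falls. Largest values and counts of calls grow with the number of probes, so they are not compared between these sets. In H5D the same Ccn2 probe ranked 1819 to 2281 with vehicle and 721 to 791 with rapamycin, at 9.09% to 12% of the brightest signal with rapamycin. The part of the signal range in the GN5 values of Ccn2 was not tested. No other member came near the top: the next highest in the GN5 cells was Ccn1, at ranks 591 to 1339.

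**Figure D2:**
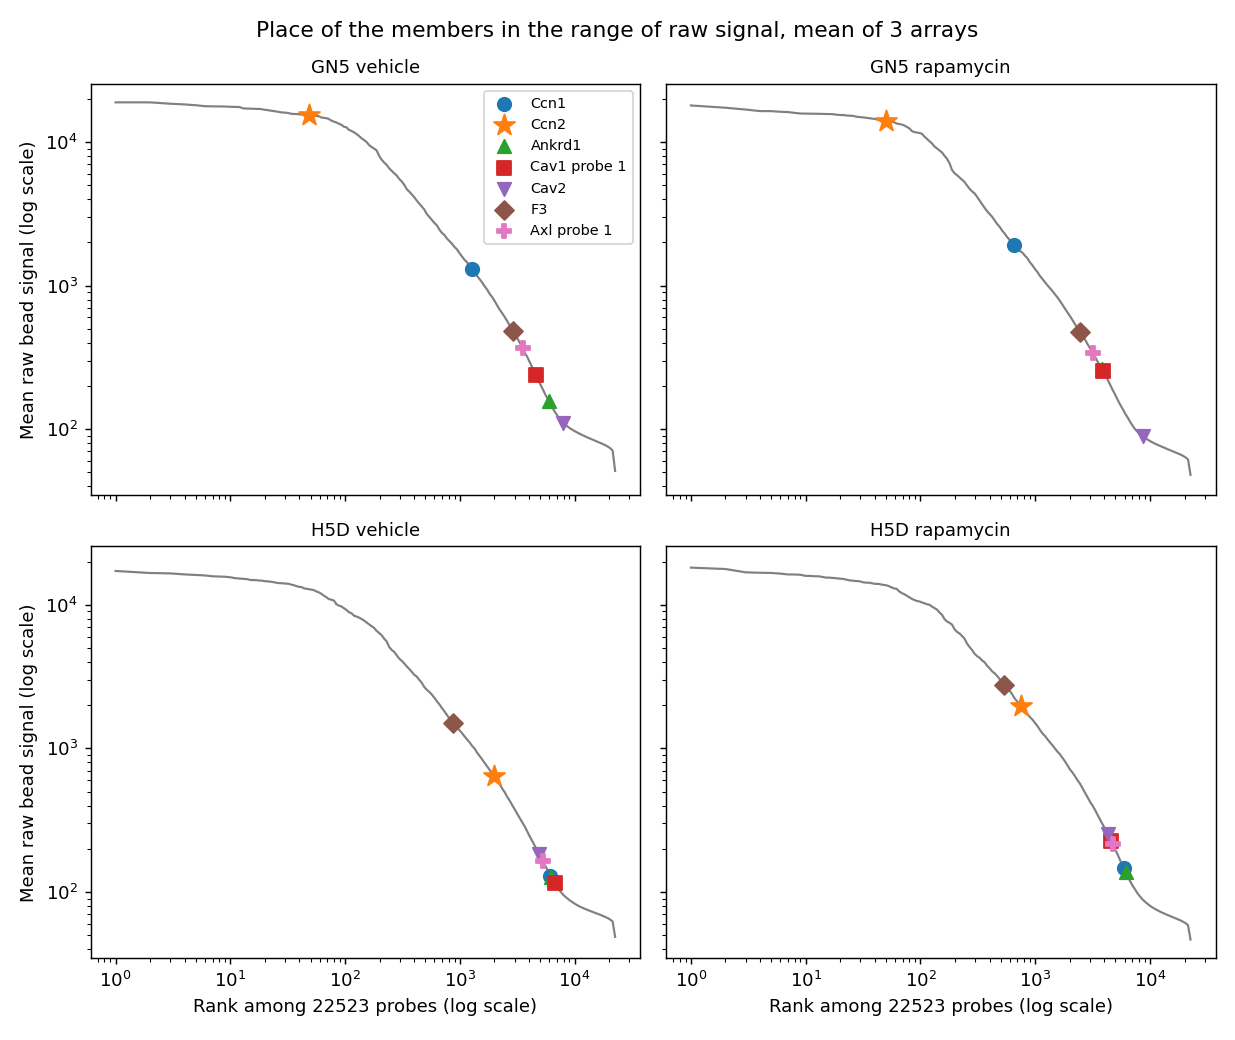
Mean raw bead signal of 3 arrays (y axis, log scale) against rank among all probes (x axis, log scale), in 1 panel per group. The grey line is all 22523 probes and symbols are member probes, 1 per gene, with Ccn2 as the star; Ccn2 sits at rank 48 and 50 on the upper end of the GN5 curves and at 1985 and 752 on the H5D curves.

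The larger measured response to rapamycin was that of GN5 for Ccn1 and that of H5D for Ccn2. Ccn1 was 1.95-fold higher with rapamycin than with vehicle in GN5 (log2 0.97, SE 0.108) and 1.12-fold higher in H5D (0.16, SE 0.164). The H5D raw signals of Ccn1, 113 to 164, were close to background, so its H5D response was read near the bottom of the range. Ccn2 was 2.94-fold higher in H5D (log2 1.56, SE 0.13) and its GN5 difference was 0.00 (SE 0.0938). The response of Ccn1 in GN5 minus that in H5D was 0.80 (SE 0.207), and that of Ccn2 was -1.56 (SE 0.157), with its GN5 part read near the top of the range. When arrays were scaled to a common median, the Ccn1 value was 0.39, where the median over all probes tested was -0.294.

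Ankrd1 encodes an ankyrin repeat protein of muscle sarcomeres and nuclei, and its gene is a frequent readout of YAP. Raw signals were 138, 179 and 154 in GN5 with vehicle and 266, 274 and 247 with rapamycin. The H5D arrays read 141, 110 and 131 with vehicle and 140, 147 and 126 with rapamycin. The GN5 rapamycin arrays stood above all other arrays, and the H5D treatment groups overlapped. Under vehicle the mean log2 levels of 6.45 ± 0.108 in GN5 and 6.23 ± 0.193 in H5D differed by 0.22 (SE 0.126), and the 3 GN5 levels lay just above the 3 H5D levels. Under rapamycin the level was 7.88 ± 0.194 in GN5 and 6.32 ± 0.0265 in H5D, a 2.96-fold difference (log2 1.56, SE 0.109). The rapamycin response was 2.69-fold in GN5 (log2 1.43, SE 0.117) and 1.06-fold in H5D (0.08, SE 0.117), and the response in GN5 exceeded that in H5D by 1.34 (SE 0.168). The vehicle signals were close to background, so the size of this response depended on background correction. On the authors' normalized values, which kept the background, it was 1.02 on the log2 scale.

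**Figure D3:**
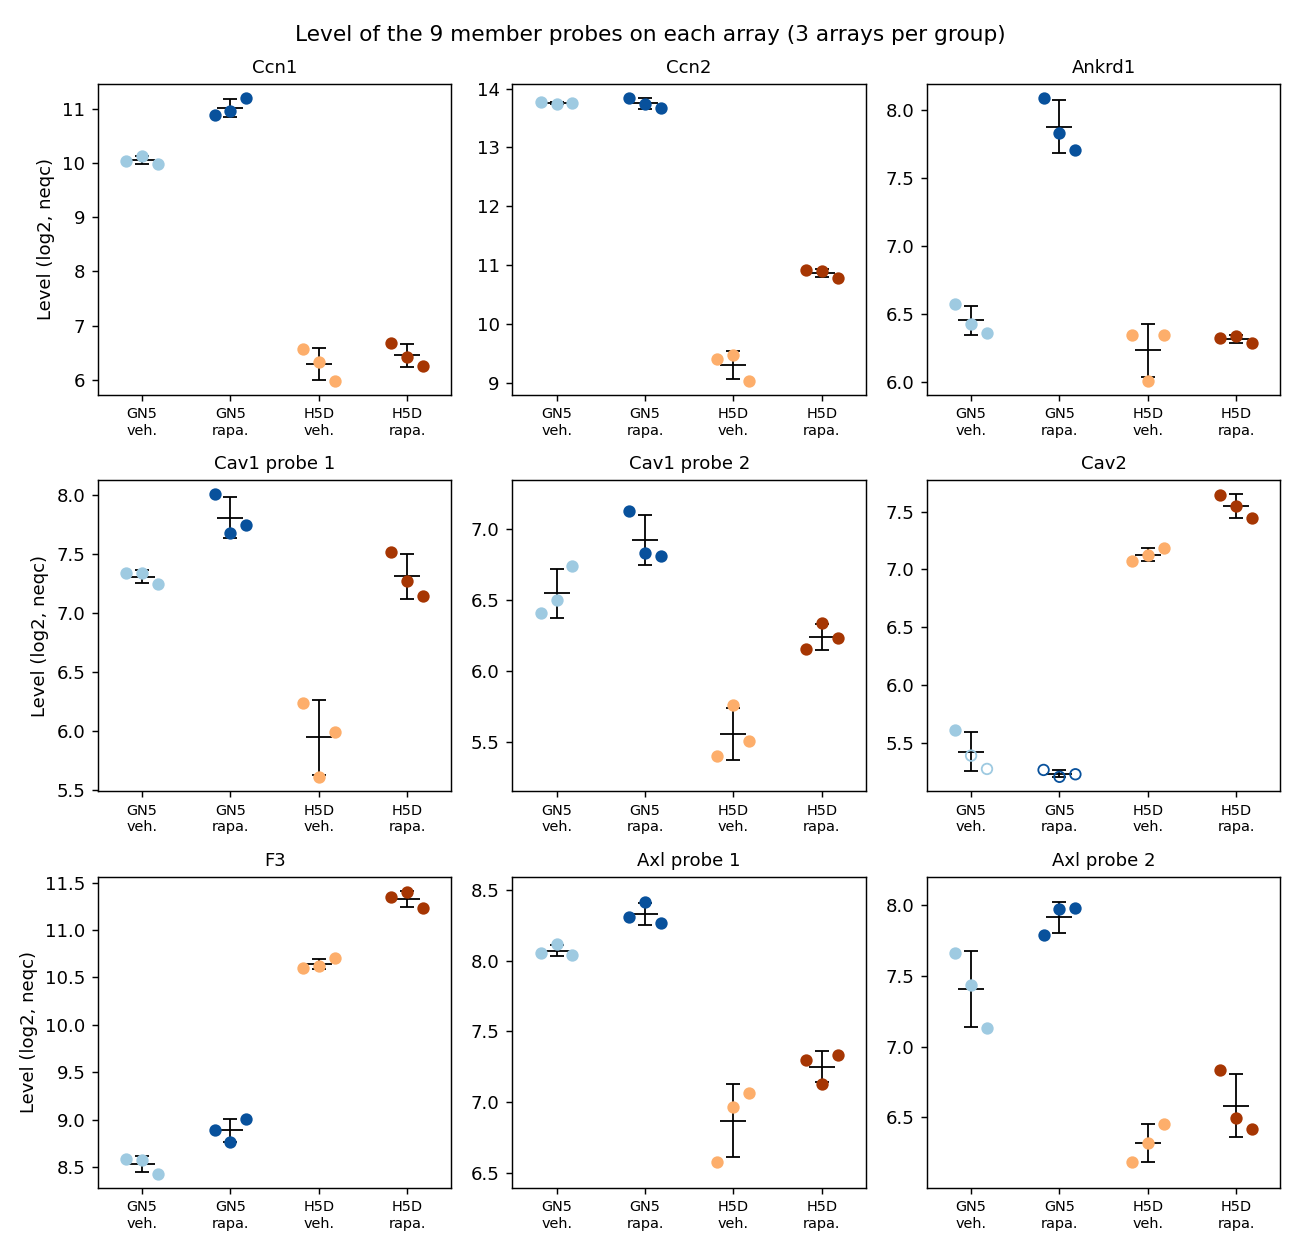
Log2 level after neqc normalization (y axis) of each member probe in the 4 groups (x axis: veh., vehicle; rapa., rapamycin), with panels of different range. Points are arrays in the order of replicates 1 to 3, open where the probe was not detected, and black marks give the mean ± SD of 3 arrays; Ccn1, Ccn2, Cav1 and Axl are higher in GN5, F3 and Cav2 in H5D.

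The caveolins lay on opposite sides of the line comparison. Cav1, the structural coat protein of caveolae in most tissues, was higher in GN5, and Cav2, which assembles with caveolin-1, was higher in H5D. The Cav1 probes were designed on different RefSeq transcripts. For Cav1 probe 1, raw signals were 202, 278 and 231 in GN5 with vehicle and 256, 251 and 252 with rapamycin. In H5D they were 134, 97.9 and 113 with vehicle and 253, 238 and 187 with rapamycin. On this probe the H5D rapamycin levels overlapped those of GN5 with vehicle (mean log2 7.31 in both groups). The H5D vehicle level of 5.94 ± 0.316 stood below every other array.

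Under vehicle Cav1 was 2.57-fold higher in GN5 on probe 1 (log2 1.36, SE 0.151) and 1.99-fold higher on probe 2 (0.99, SE 0.134). Under rapamycin the differences were 1.41-fold (log2 0.50, SE 0.123) and 1.6-fold (0.68, SE 0.11). When arrays were scaled to a common median, the differences under rapamycin were 0.20 for probe 1 and 0.40 for probe 2. On the authors' normalized values those under vehicle were 0.86 and 0.54. On probe 2, raw signals were 128, 185 and 182 with vehicle and 166, 165 and 156 with rapamycin in GN5. The H5D arrays read 98.7, 102 and 95.4 with vehicle, with detection p values of 0.00606 to 0.00848, and 130, 147 and 124 with rapamycin. No pair of neighbouring groups overlapped in level on this probe, from GN5 with rapamycin (6.93 ± 0.178) through GN5 with vehicle (6.55 ± 0.171) and H5D with rapamycin (6.24 ± 0.092) to H5D with vehicle (5.55 ± 0.187).

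With rapamycin, Cav1 was 2.58-fold higher in H5D on probe 1 (log2 1.37, SE 0.166) and 1.61-fold higher on probe 2 (0.69, SE 0.12). In GN5 the differences were 1.42-fold (log2 0.50, SE 0.108) and 1.3-fold (0.38, SE 0.122). After normalization the probes thus gave the same direction in both lines and different sizes in H5D. On raw signals, probe 2 in GN5 averaged 165 with vehicle and 162 with rapamycin. On the authors' normalized values the H5D differences were 0.87 and 0.36 on the log2 scale.

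Cav2 was at the detection limit in GN5. Its raw signals there were 96.1, 125 and 110 with vehicle, detected on replicate 1 only, and 87.7, 93.1 and 86.6 with rapamycin, detected on no array. In H5D it was detected on every array, at 196, 168 and 190 with vehicle and 269, 278 and 217 with rapamycin. Every H5D array lay above every GN5 array. Under vehicle the level was 7.13 ± 0.0568 in H5D and 5.42 ± 0.171 in GN5, 3.26-fold higher in H5D (log2 GN5 minus H5D -1.71, SE 0.117), with 1 of the 3 GN5 arrays above the detection limit. Under rapamycin it was at least 3.98-fold higher in H5D on the background-corrected scale, a bound that sets each GN5 array at the lowest level seen among its detected probes. On the authors' normalized values, which kept the background, Cav2 was 1.99-fold (log2 -0.99) higher in H5D with vehicle and 2.62-fold (-1.39) with rapamycin. The probe passed the detection filter through its H5D arrays alone. With rapamycin Cav2 was 1.34-fold higher in H5D (log2 0.42, SE 0.102). In GN5 the values differed by -0.19 (SE 0.0918) between groups that were mostly undetected.

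F3 encodes tissue factor, the cell surface receptor of clotting factor VII. The GN5 arrays read 430, 561 and 450 with vehicle and 426, 467 and 531 with rapamycin. The H5D arrays read 1724, 1281 and 1529 with vehicle and 2724, 3262 and 2329 with rapamycin. All H5D arrays stood above all GN5 arrays, and after normalization no treatment groups of a line overlapped. H5D was 4.33-fold higher under vehicle (log2 GN5 minus H5D -2.12, SE 0.105) and 5.43-fold higher under rapamycin (-2.44, SE 0.101). The level was 1.61-fold higher with rapamycin in H5D (log2 0.68, SE 0.0994) and 1.28-fold higher in GN5 (0.36, SE 0.102).

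Axl was higher in GN5 on both of its probes. On probe 1 the raw signals were 306, 428 and 361 in GN5 with vehicle and 304, 377 and 338 with rapamycin, and in H5D 156, 157 and 180 with vehicle and 224, 220 and 205 with rapamycin. Probe 2 read 244, 293 and 219, then 229, 294 and 287 in GN5, and 131, 122 and 137, then 176, 158 and 133 in H5D, in the same order of groups. No H5D array reached a GN5 array on either probe. Under vehicle the difference was 2.3-fold on probe 1 (log2 1.2, SE 0.136) and 2.13-fold on probe 2 (1.09, SE 0.145). Under rapamycin it was 2.11-fold (log2 1.08, SE 0.0978) and 2.52-fold (1.33, SE 0.12). The rapamycin differences of Axl were small in both lines. They were 0.26 (SE 0.0935) and 0.50 (SE 0.132) on the log2 scale for probes 1 and 2 in GN5, and 0.38 (SE 0.14) and 0.27 (SE 0.134) in H5D, where the groups of probe 2 overlapped.

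In the fit over all probes, 8 of the 9 member probes were called between the lines under vehicle, 6 higher and 2 lower in GN5, and Ankrd1 was not. This stood against 63.3% of all 8279 probes tested (32.3% higher and 31% lower), so most probes tested differed between these lines. Under rapamycin 9 of 9 were called, 7 higher and 2 lower in GN5, against 72.2% of 8288 probes (38.1% and 34.1%). The median difference over the member probes was 1.09 under vehicle and 1.08 under rapamycin on the log2 scale, against 0.04 and 0.05 over all probes tested. Because most probes were called, because the members were chosen on these arrays and because Cav2 was tested only through the line where it was high, nothing is read from these counts.

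**Figure D4:**
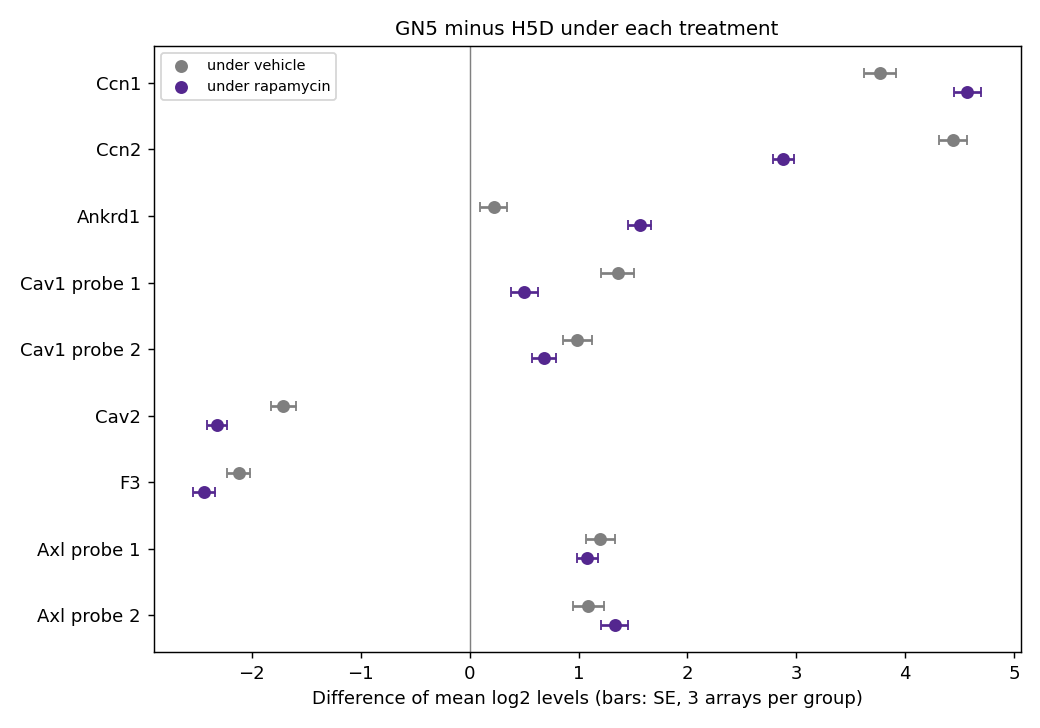
Difference of mean log2 levels, GN5 minus H5D (x axis), for each member probe (y axis) under vehicle (grey) and rapamycin (purple), with bars of 1 SE from 3 arrays per group. Values right of 0 are higher in GN5; Ccn1 and Ccn2 lie between 2.88 and 4.57, and Cav2 and F3 between -2.44 and -1.71.

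Most member levels were higher with rapamycin than with vehicle in both lines. In GN5, 7 of the 8 member probes tested had rapamycin levels wholly above the vehicle levels, against 27.8% of all probes whose groups did not overlap and 14% in that direction. In H5D it was 6 of 9, against 23.1% and 10.8%. The median over the members was 0.44 in GN5 and 0.42 in H5D on the log2 scale, against 0.01 and -0.01 over all probes. Because the members were chosen with these responses known, nothing is read from these counts. They also moved with scaling in GN5. On raw signals, where GN5 vehicle replicates 2 and 3 were the brighter arrays, 4 of 9 member means were higher with rapamycin in GN5 and 9 of 9 in H5D.

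Scaling to a common median shifted the median of all probes tested to -0.139 in GN5 and 0.172 in H5D. Relative to that shift, Ccn1 was at 0.88 and Ankrd1 at 1.48 in GN5, and Ccn2 at 1.54 and Cav1 probe 1 at 1.36 in H5D. The smallest GN5 differences in size were 0.31 for F3, 0.23 for Axl probe 1, 0.16 for Ccn2 and -0.06 for Cav2. Without both brighter arrays, GN5 with rapamycin was still above the remaining vehicle array by 0.98 for Ccn1 and 1.31 for Ankrd1, and Axl probe 2 moved to 0.25. H5D vehicle replicate 2 had the lowest mean correlation with the other arrays of its own group among the 12 arrays, 0.989 over the 8539 probes detected on all arrays of at least 1 group, where the other arrays lay between 0.991 and 0.996. Without it, Ccn2 was 1.64 and Cav1 probe 1 was 1.2 above vehicle in H5D.

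**Figure D5:**
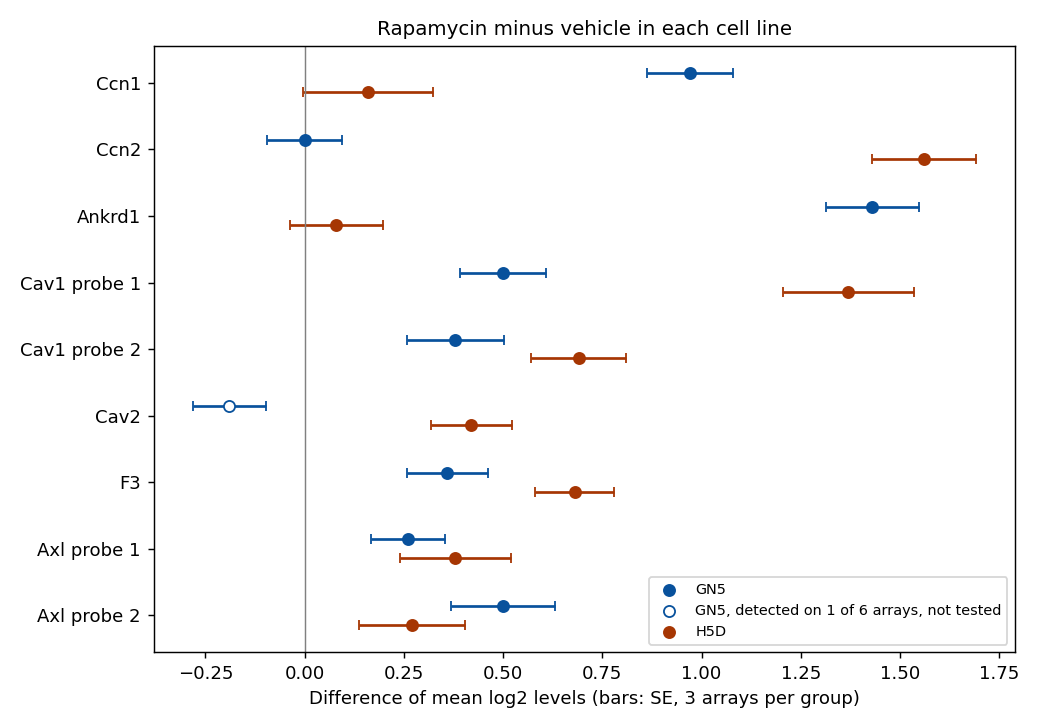
Difference of mean log2 levels, rapamycin minus vehicle (x axis), for each member probe (y axis) in GN5 (blue) and H5D (orange), with bars of 1 SE from 3 arrays per group; the open circle is Cav2 in GN5, detected on 1 of 6 arrays. In GN5 the values are led by Ankrd1 (1.43) and Ccn1 (0.97), in H5D by Ccn2 (1.56) and Cav1 probe 1 (1.37).

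The factors that act on these genes were measured in part. The Yap1 probe was not detected on any array, and no probe was named for Tead1, Tead4 or Gas6. Wwtr1, which encodes TAZ, had mean log2 levels of 7.15 in GN5 with vehicle, 7.25 with rapamycin, and 5.79 and 6.12 in H5D. It was higher in GN5 under both treatments (log2 1.36 and 1.13, adjusted p = 5.84e-07 and 4.3e-07, limma). Tead3, a DNA-binding partner of both coactivators, stood at 8.98 and 9.09 in GN5 and 6.7 and 6.9 in H5D (log2 2.27 and 2.19, adjusted p = 4e-08 and 4.1e-09). Tead2 lay at 6.08 with vehicle and 6.15 with rapamycin in both lines. Of 11 tested genes among the regulators of YAP and TEAD, 7 were higher and 2 lower in GN5 under either treatment. Of 16 tested genes in a list of other genes known to respond to YAP, 11 were higher and 4 lower under either treatment. Ajuba, Lats2 and Ptpn14 stood in both lists and were counted in each. Of all probes tested, 63.3% were called under vehicle (32.3% higher) and 72.2% under rapamycin (38.1% higher). The medians of these lists under vehicle were 0.80 and 1.06 on the log2 scale, against 0.04 over all probes tested. Lats2, Ptpn14 and Gadd45b passed the detection filter through the GN5 arrays alone, and Areg, Igfbp3 and Limd1 through the H5D arrays alone. The direction of their calls was thus set by the filter. The lists were also chosen with earlier results of these data known, so nothing is read from these counts and medians.

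In the GN5 cells rapamycin changed 6 of 14 tested genes of the other YAP-responsive list, where 6.91% of all 7449 probes tested were called (3.45% as rises and 3.46% as falls). Edn1, which encodes the vasoconstrictor endothelin-1, rose 2.07-fold (log2 1.05, SE 0.101, adjusted p = 0.000224, limma). Tgfb2, a TGF-beta ligand, rose 1.6-fold (0.68, adjusted p = 0.00582), and Crim1 (0.54, adjusted p = 0.0315), Lats2 (0.54, adjusted p = 0.0152) and the kinase gene Nuak2 (0.46, adjusted p = 0.0494) rose as well. Gadd45a, a stress and DNA damage response gene, fell by 0.73 (adjusted p = 0.00358). The list's median was 0.40, against 0.01 over all probes tested. This list, like those below, was chosen with earlier results of these data known. Nothing is read from its counts or medians, and the adjusted p-values of listed genes do not allow for that choice. Lats2, which is also a kinase that restrains YAP, was the only one of 10 tested regulators that was called. Lats2, Crim1 and Nuak2 were named because the count was small, after their values were seen where they fell outside the rule.

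These GN5 calls rested unevenly on the arrays. Edn1 remained called without each array in turn and without vehicle replicates 2 and 3 together (adjusted p = 0.0096). Without those 2 arrays Tgfb2 had an adjusted p of 0.0726 and Gadd45a of 0.104. Leaving out vehicle replicate 2 moved the adjusted p of Lats2 to 0.0842, leaving out rapamycin replicate 2 moved it to 0.0797, and leaving out rapamycin replicate 3 to 0.0697. Crim1 was no longer called when vehicle replicate 2 (0.143), vehicle replicate 3 (0.0695), rapamycin replicate 1 (0.0985) or rapamycin replicate 2 (0.134) was left out. Leaving out any GN5 array but vehicle replicate 1 ended the Nuak2 call (0.0769 to 0.192). Under common-median scaling the adjusted p was 0.0595 for Tgfb2, 0.104 for Crim1 and 0.146 for Nuak2.

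In the H5D cells Edn1 was the only one of 13 tested genes of that list to be called (log2 0.73, SE 0.118, adjusted p = 0.0321, limma), where 0.722% of 7895 probes were called (0.317% as rises, 0.405% as falls), and the list's median was 0.21. The Edn1 call did not hold when single arrays were left out, with an adjusted p of 0.136 and 0.0553 for vehicle replicates 1 and 2, and 0.128, 0.166 and 0.0743 for rapamycin replicates 1 to 3. Its difference stayed at 0.65 to 0.8 without any 1 array, in fits that called 0 to 42 probes in all. Of the 13 genes, 6 had an unadjusted p below 0.05 in limma and 2 were called by the methods' t-test. Over all 7895 probes these were 1317 and 350. Of 9 tested YAP and TEAD regulators, 0 were called in H5D by limma or by the methods' t-test, and 2 had an unadjusted p below 0.05 in limma. The response itself differed between the lines for 1.41% of 8539 probes. Gadd45a was among them, the only one of 16 tested genes of the YAP-responsive list, with a response lower in GN5 by 0.91 (log2 -0.91, SE 0.15, adjusted p = 0.0069). Without GN5 vehicle replicates 2 and 3 it was -0.72 (adjusted p = 0.141).

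Genes beside the members at the membrane and in clotting were mostly not called with rapamycin, where 6.91% of all probes were called in GN5 and 0.722% in H5D. Of 4 tested caveola coat genes, 0 were called by limma with rapamycin in either line, and their median was 0.04 in GN5 and 0.55 in H5D. At an unadjusted p below 0.05, 1 passed in GN5 and 3 in H5D, and the methods' t-test called 0 and 1. Cavin1, the cavin that caveola formation needs, had levels of 6.28 and 6.33 in GN5 and 6.22 and 6.83 in H5D, and under rapamycin it was lower in GN5 than in H5D (log2 -0.49, adjusted p = 0.000552, limma). Of the other coat genes tested, Cavin3 was higher in GN5 under both treatments (log2 2.99 and 2.77, adjusted p = 1.77e-09 and 5.89e-11). Pacsin2 was higher in GN5 under rapamycin (0.47, adjusted p = 0.000975, and 0.17 with 0.303 under common-median scaling). Ehd2 was higher under vehicle (0.57, adjusted p = 0.0317), a call that ended without GN5 or H5D vehicle replicates 1 or 2 (0.0776 to 0.118). In all, 2 of 4 coat genes were called between the lines under vehicle and 3 under rapamycin. Between the lines 63.3% and 72.2% of all probes tested were called, so nothing is read from these counts. Cavin3, Pacsin2 and Ehd2, like F2rl1 below, were named after their values were seen.

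All 3 tested partners of F3 were called between the lines under both treatments, the thrombin receptor gene F2r as higher in GN5 (log2 2.02 and 2.34) and Tfpi and F2rl1 as lower. Of all probes tested, 63.3% were called between the lines under vehicle and 72.2% under rapamycin, so nothing is read from this count. F2rl1, another protease-activated receptor gene, was at -0.62 and -0.36, and its calls ended without GN5 vehicle replicates 2 and 3 (adjusted p = 0.0964) and, under rapamycin, without H5D replicates 1 (0.0644) or 3 (0.0656) or GN5 replicate 2 (0.0921). Tfpi, the inhibitor of the tissue factor pathway, was lower in GN5 under vehicle (-0.62, adjusted p = 0.00273) and rapamycin (-0.86, adjusted p = 8.58e-06), as F3 was. Its call under vehicle ended without GN5 vehicle replicates 2 and 3 (-0.46, adjusted p = 0.109). With rapamycin, only F2r of these 3 rose in GN5 (0.65, adjusted p = 0.00848). Leaving out replicate 2 of either treatment ended that call (0.0581 for vehicle, 0.0551 for rapamycin), as did common-median scaling (0.42, adjusted p = 0.0608), testing all probes without a filter (0.0527) and leaving out vehicle replicates 2 and 3 (0.43, adjusted p = 0.19). In H5D 0 of 3 were called by limma, with 2 at an unadjusted p below 0.05 and 1 called by the methods' t-test.

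Among 6 tested targets of the actin-regulated factors MRTF and SRF in GN5, 1 was called, against 6.91% of all probes. Tagln, which encodes the actin-binding protein transgelin, rose 1.61-fold (log2 0.68, SE 0.111, adjusted p = 0.00416, limma). It was detected on 0 H5D arrays and not tested there. Its response differed between the lines by 0.78 (adjusted p = 0.0246), as the only one of 7 genes of the list, against values below detection in H5D. That call ended without GN5 vehicle replicates 1 (0.0511) or 3 (0.0548), GN5 rapamycin replicates 1 (0.0676) or 2 (0.0748), H5D vehicle replicate 1 (0.0619), H5D rapamycin replicates 1 (0.0565) or 2 (0.0772) or both brighter arrays (0.0893), and with common-median scaling (0.084) or the replicate block (0.0644). In H5D, where 6 genes of the list without Tagln were tested, 0 were called by limma or the methods' t-test, with 1 at an unadjusted p below 0.05 in limma, against 0.722% of all probes. Of the other CCN genes, Ccn4 was detected in GN5 only (mean log2 level 9.99 with vehicle and 10.29 with rapamycin) and Ccn3 in H5D only (8.82 and 9.24). With rapamycin, limma called 0 of 1 tested other CCN genes in each line, 0 of 3 CCN receptors in GN5 and 0 of 4 in H5D, and 0 of 1 and 0 of 2 Axl ligands and relatives. At an unadjusted p below 0.05 these were 1 and 0, 2 and 1, and 0 and 0, and the methods' t-test called 1 and 0, 1 and 0, and 0 and 0. The mesenchymal collagen gene Col1a1 fell in GN5 (-0.75, adjusted p = 0.0046), and without vehicle replicates 2 and 3 its adjusted p was 0.127. No other cell type marker was called with rapamycin within a line by limma, and the methods' t-test called 1 in GN5 and 3 in H5D. The response of Krt8 differed between the lines (log2 -0.71, SE 0.119, adjusted p = 0.00796, limma), at -0.28 in GN5 and 0.43 in H5D. Krt8 was named after its values were seen, and this call was not followed through the alternatives.

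The genes whose levels followed each member most closely were found over the 12 arrays, as the smallest root mean square difference of centred log2 levels among 6421 named probes. For Ccn1 these were Ltbp4 (0.19), which encodes a latent TGF-beta binding protein, Tagln (0.22) and the phosphatase gene Dusp1 (0.237). For Ccn2 no gene was as near, with Cyp1b1 (0.423), Dclk1 (0.445) and the growth factor gene Pdgfa (0.466) the closest. Ankrd1 was followed by Arhgap24 (0.221), Akap5 (0.282) and Lypd6b (0.287). In H5D the mean log2 levels of Tagln, Akap5 and Lypd6b were 4.44 to 4.84, near background. Like Ankrd1, Arhgap24 was highest in GN5 with rapamycin (mean log2 10.04), and lower in GN5 with vehicle (9.1) and in H5D (8.61 and 8.59).

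Cav2 was followed by Abcc3 (0.131), Cxcl11 (0.136) and Macrod1 (0.136), and F3 by Igfbp7 (0.155), Hoxb5 (0.172) and Tbxas1 (0.178). In GN5 the mean log2 levels of Cxcl11, Macrod1, Hoxb5 and Tbxas1 were 4.44 to 5.06, near background. The nearest genes to Axl probe 1 were Slc12a4 (0.106), the integrin gene Itgb5 (0.112) and Ppfibp1 (0.122), and those to probe 2 were Galnt11 (0.145), Mbd1 (0.154) and Dab2 (0.161). The Cav1 probes had different neighbours, Klhl29 (0.254), Rnf8 (0.357) and Wipi1 (0.361) for probe 1 and Cox7a2l (0.134), Rpl13a (0.175) and Map1lc3a (0.2) for probe 2. The points share lines, plates and treatment, so these distances describe the arrays and carry no test.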

How the data were processed

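Total RNA from triplicate plates of GN5 and H5D cells, with vehicle or rapamycin, was hybridised to Illumina RatRef-12 BeadChips (12 arrays), and each array's group and replicate number were read from its sample title. The deposited bead table held 1 linear intensity per probe and array without background subtraction or normalization, and a detection p-value beside it, per the file headers. A second deposited table held the authors' intensity values after quantile normalization by BeadStudio, and the submitters' processing notes also name Partek 6.3. The genome build was not given in the sources used here.

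Intensities were background corrected from the detection p-values (normal-exponential model, offset 16), quantile normalized and put on the log2 scale (neqc, limma 3.58.1, R 4.3.3). A probe was tested if detected (p at most 0.01) on all 3 arrays of at least 1 compared group. Of 22523 probes 13793 had 1 symbol, 8730 none and 0 several; 13752 were matched by Entrez identifier to a GRCr8 gene table for current names. Pairwise fits (lmFit, eBayes, two-sided) used the 6 arrays of each comparison, and the difference of responses used all 12. For members no p-value is given, since they were chosen on these arrays. Probes were called at a Benjamini-Hochberg adjusted p below 0.05. Errors are SD of levels and SE of differences. The fit was tested on simulated data. Only 3 arrays per group limit the precision. Replicate numbers did not pair the arrays (correlations of same-numbered deviations -0.371 to 0.297). Deviations of differently numbered arrays correlated at -0.48 to 0.449, and the source of these correlations was not tested.

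The members and the 13 gene lists were chosen with earlier results of these data known. All member probes were named, the partners Yap1, Wwtr1, Tead1 to Tead4, Cavin1, Gas6 and Tfpi whatever their result, and from each list up to 3 called genes with the largest rapamycin change (1 probe per gene, the brightest tested). The 3 nearest genes were named for probes whose group means spanned at least 1 on the log2 scale. Promoters came from RefSeq (GRCr8). Alternatives were the authors' values, common-median scaling, other detection filters, a replicate block, a fit over all arrays, the methods' t-test and leaving out arrays.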

Additional observations from a re-analysis of the deposited data

Results flagged for a closer look

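Cav2 was marked because its values moved in opposite ways in the 2 lines. On the log2 scale, each GN5 rapamycin array lay below every GN5 vehicle array (means 5.23 and 5.42, a difference of -0.19), and each H5D rapamycin array lay above every H5D vehicle array (7.55 and 7.13, a difference of 0.42). The response in GN5 minus that in H5D was -0.61, and this difference was not tested for Cav2, which had been chosen with these responses known. The probe was detected on 1 of 3 vehicle and 0 of 3 rapamycin arrays in GN5, with detection p values of 0.0206 to 0.0303 on the other GN5 arrays.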

How the results depend on the processing

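Between the lines, the difference of each member probe kept its direction under the 14 alternatives run under vehicle and the 13 under rapamycin. On the authors' values, which kept the background, the fold moved by over 1.5 times for Ccn1 (log2 3.05 and 3.87 under vehicle and rapamycin) and Cav2 (-0.99 and -1.39). Without 1 array at a time, 4714 to 5366 probes were called between the lines under vehicle and 5517 to 5967 under rapamycin. Common-median scaling changed the split of the rapamycin line comparison from 3160 higher and 2828 lower in GN5 to 1855 and 3504. For rapamycin in GN5, 515 probes were called (257 higher, 258 lower), and 857 with common-median scaling (103 higher, 754 lower), 233 with no filter, 330 with the replicate block, 93 without vehicle replicates 2 and 3, and 167 (without vehicle replicate 2) to 967 (without vehicle replicate 1) without 1 array. For rapamycin in H5D, 57 were called (25 higher, 32 lower), and 87 on the authors' values, 164 with common-median scaling (156 higher, 8 lower), 31 with no filter, 15 with the replicate block, 290 with all 12 arrays in the fit, 350 by the methods' t-test, and 0 to 42 without 1 array. The 0 came from limma without H5D rapamycin replicate 2, where 830 probes had an unadjusted p below 0.05. For the difference of responses, 120 were called (63 higher, 57 lower), and 252 with common-median scaling (16 higher, 236 lower), 40 with the replicate block, 14 without GN5 vehicle replicates 2 and 3, and 58 to 134 without 1 array. The cause of these changes was not tested. Replicate numbers alone did not pair the arrays, and with the block Edn1 in H5D (adjusted p = 0.0861) and Nuak2 in GN5 (0.0905) lost their calls, and Tagln lost that of its difference of responses (0.0644). Among member probes tested, differences with rapamycin kept their direction without any 1 array, except Ankrd1 in H5D (-0.03 to 0.14) and Ccn2 in GN5 (-0.05 to 0.04). The difference of responses of Axl probe 1 ranged from -0.22 to 0.02, and that of Axl probe 2 was -0.09 with common-median scaling and -0.02 without GN5 vehicle replicates 2 and 3. A chip block was not run, since the files used name no chip. Cav2 in GN5 and Ccn1 in H5D were measured near background, and Ccn2 in GN5 near the top of the range.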
